A study of Mus musculus with 10 samples.

Results

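The transcripts of 10 integrin subunits, Itga2, Itga5, Itga6, Itga11, Itgav, Itgb1, Itgb3, Itgb4, Itgb5 and Itgb6, were followed in mouse mammary normal fibroblasts (NFs) and breast tumor cells. They were chosen by gene symbol from a table of 55486 genes, and all 10 had a row. The study asked how CD26- and CD26+ NFs respond to tumor cells, and grew the cells for 7 days in 5 gels of collagen and basement membrane extract (BME), from which 10 bulk RNA libraries were made. Both NF subsets shared gel 1 without tumor cells. Gel 2 contained the tumor line 13-MCB-17 and gel 3 the line 10-SJK-221, each without NFs. For co-culture, both NF subsets were combined with 13-MCB-17 cells in gel 4 and with 10-SJK-221 cells in gel 5. Each NF subset alone was therefore 1 library, while tumor cells alone and each of the 3 cell types after co-culture were 2 libraries.

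All NFs came from female mTmG mice, aged 8 to 16 weeks per the methods, whose cells carry a red membrane protein that Cre recombinase replaces with a green one. Only the CD26+ subset had received an adenovirus with Cre, which made it green, so the virus and the subset cannot be told apart. Before culture, NFs had been sorted as cells without EpCAM, CD49f, CD45 and CD31 from pooled mice. CD49f is the protein product of Itga6, so NFs entered the gels selected for low surface Itga6. Tumor cells came from WapCre;Cdh1F/F mice, in which the Wap promoter drives Cre in mammary epithelium. Each tumor line was 1 line, and all NFs alone came from 1 gel.

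Integrins are receptors of 1 alpha and 1 beta subunit that join the extracellular matrix to the actin skeleton and pass signals in both directions. Itgb1 pairs with most alpha subunits: with Itga2 or Itga11 it binds collagens, with Itga5 fibronectin and with Itga6 laminins. Itgav pairs with Itgb3, Itgb5 or Itgb6 into receptors for vitronectin, fibronectin and osteopontin, of which the Itgb6 form is an epithelial receptor that activates latent TGF-beta. Itgb4 pairs with Itga6 alone, in the hemidesmosomes that anchor epithelial cells to basement membrane. In the mammary gland, fibroblasts meet mainly fibrillar collagen and fibronectin, and epithelial cells meet laminin.

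The 250 bases upstream of the RefSeq gene start (GRCm38.p6) were available for 7 of the 10 genes, with 2 starts for Itgb6. RefSeq starts and those in the count table differed in part, and the last 29 bases of the Itga11 window, 40 bases of the first Itgb6 window and the whole second one lie inside the gene as the count table places it. Those of Itga2, Itga11 and Itga5 are shown because the first gene was transcribed mostly in tumor cells, the second almost wholly in NFs and the third in both. They lie at chr13:114932101-114932350 (minus strand), chr9:62677605-62677854 (plus strand) and chr15:103366792-103367041 (minus strand), and capitals mark GC boxes.
Itga2: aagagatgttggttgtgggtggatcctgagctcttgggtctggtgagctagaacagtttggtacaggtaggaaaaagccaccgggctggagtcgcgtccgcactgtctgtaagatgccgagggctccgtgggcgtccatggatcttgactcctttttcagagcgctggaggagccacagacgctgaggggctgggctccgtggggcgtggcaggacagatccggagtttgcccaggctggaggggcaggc
Itga11: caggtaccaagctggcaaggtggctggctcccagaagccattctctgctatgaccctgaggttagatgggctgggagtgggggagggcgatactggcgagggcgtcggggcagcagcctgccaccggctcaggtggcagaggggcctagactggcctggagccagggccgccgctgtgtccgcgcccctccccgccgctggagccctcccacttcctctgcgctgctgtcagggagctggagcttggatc
Itga5: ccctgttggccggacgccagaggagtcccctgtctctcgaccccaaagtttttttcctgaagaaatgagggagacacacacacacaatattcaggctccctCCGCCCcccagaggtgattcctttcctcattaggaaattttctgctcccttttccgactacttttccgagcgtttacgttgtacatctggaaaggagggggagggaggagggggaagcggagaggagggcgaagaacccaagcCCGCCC
The GC box (GGGCGG on either strand) occurred 2 times before Itga5, 3 times before Itgb5, once before Itgb1 and 0 times before Itga2, Itga11, Itgav and Itgb6, against 32.7% of 32817 windows of the same length that held at least 1. The CCAAT box (CCAAT) occurred in none of the 8 windows and in 33.8% of all, the TATA box (TATAAA) in none and in 12.4%, and the AP-1 site (TGANTCA) in none and in 6.75%, each on either strand. GC content ran from 38.0% and 52.0% before the 2 starts of Itgb6 to 68.4% before Itga11, against a median of 52.4% over all windows. A match of letters is a description and does not show that a factor binds there.

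Libraries held 14142334 to 18408940 counts, at which 0 counts allow up to 3 counts or 0.163 to 0.212 counts scaled to 1000000 per library (CPM) depending on the library, counting error only. The sorting labels were checked by marker genes. Epcam was at 0 CPM in both NF libraries from gel 1 and at 335 to 432 CPM in tumor cells, and 10 epithelial markers summed to 0.807 and 1.12 CPM in NFs alone and to 4233 to 5577 CPM in tumor cells. Dpp4, which encodes CD26, had 4, 12 and 4 counts in CD26+ NFs and 0, 0 and 1 in CD26- NFs, so the subset label rests on the sort before culture. Cdh1, which encodes E-cadherin and is floxed in the tumor line genotype, was at 239 and 269 CPM in tumor cells alone, 144 and 140 CPM in co-cultured ones and 0 in NFs alone. Counts over the whole gene do not check a deleted part. In co-cultured NFs the epithelial markers summed to 121 to 327 CPM. Their median level was 1.97% and 2.90% of the same gel's tumor level in CD26- and CD26+ NFs of gel 4, and 2.09% and 5.36% in those of gel 5. These shares stand beside the results for tumor-high integrins. The 5 leukocyte markers summed to between 4.16 and 9.69 CPM in gel 1 and to between 21.8 and 57.6 CPM in NFs of gels 4 and 5, and to 95.1 to 301 CPM in tumor cells alone and 37.8 to 82.9 CPM in co-cultured ones, most of it Cd68, with Ptprc at 0 to 2 counts. The 5 endothelial markers summed to between 1.37 and 4.91 CPM in gel 1 and to between 8.00 and 22.9 CPM in NFs of gels 4 and 5, where 2 of 3 tested rose. The part of these markers in the NF culture results was not tested. Myoepithelial markers reached at most 104 CPM.

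**Figure D1:**
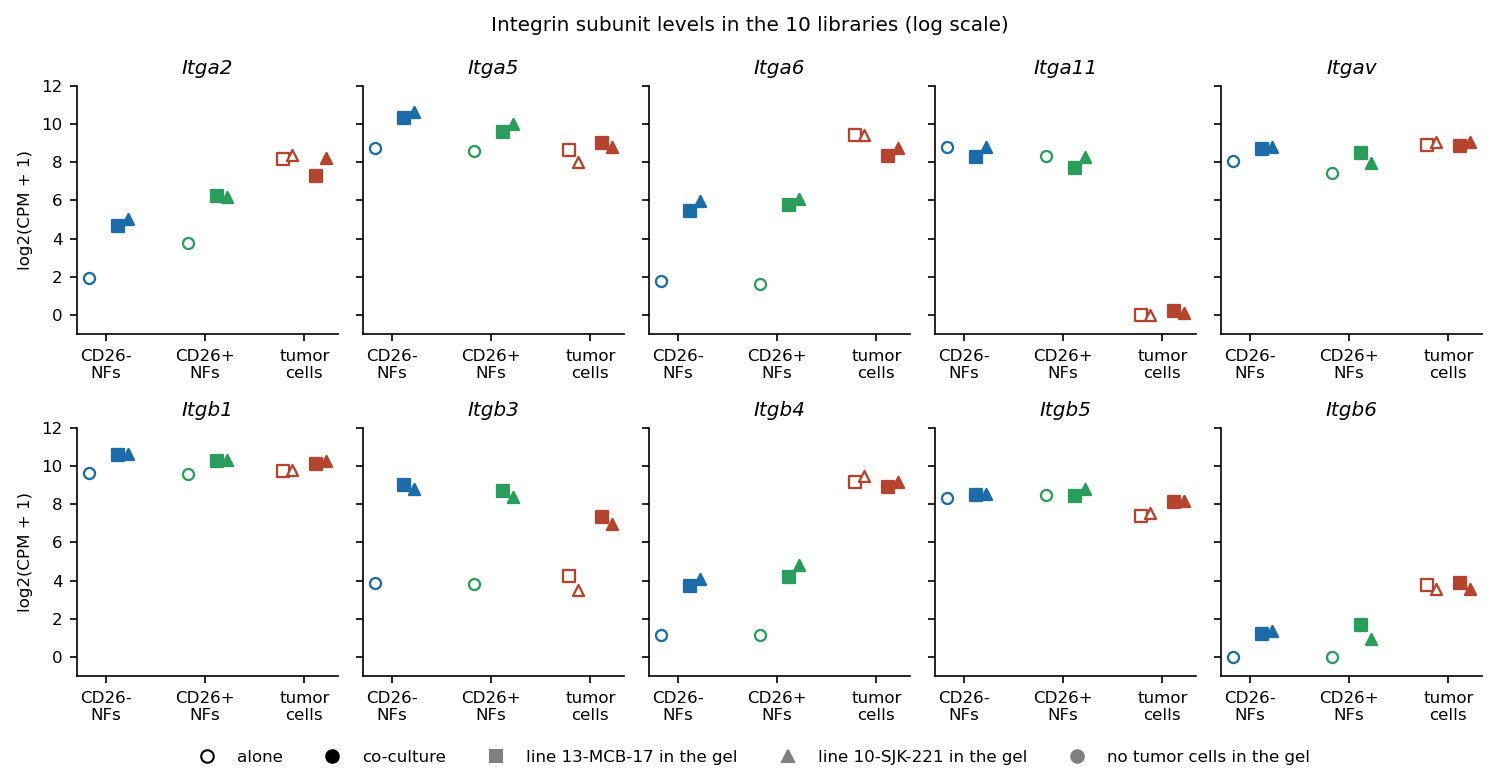
Level of each integrin subunit in the 10 libraries as log2(CPM + 1), by cell type on the x axis, with open symbols for culture alone, filled symbols for co-culture and symbol shapes for the tumor line in the gel. Itga11 lies at or near 0 in tumor cells, Itga6, Itgb4 and Itgb6 lie highest in tumor cells, and Itgb3 lies higher in all 6 co-culture libraries than in the 4 libraries of cells grown alone.

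Levels of different genes were compared as CPM per kilobase of exon. Itgb1, the shared beta subunit, was the most abundant member in NFs alone (191 ± 7.14 CPM per kb, SD, n = 2) and in tumor cells alone (214 ± 1.68, n = 2). In NFs alone, Itgb5 (95.4 ± 6.05), Itga5 (82.0 ± 5.74) and Itga11 (73.7 ± 16.5) followed, and the ranges of Itga5 and Itga11 overlapped. Itgav stood at 20.6 ± 6.22 CPM per kb and Itgb3 at 2.26 ± 0.0335. In tumor cells alone the order after Itgb1 was Itgb4 (91.9 ± 15.4), Itga6 (76.1 ± 0.412), Itga5 (66.8 ± 20.0), Itgb5 (49.7 ± 4.10), Itgav (47.7 ± 4.05) and Itga2 (43.6 ± 5.24). The range of Itga6 lay inside that of Itga5, and Itgav overlapped with both Itgb5 and Itga2, so these neighbours could not be ordered. Itgb3 stood at 2.38 ± 0.872 CPM per kb in tumor cells alone, a difference from NFs alone within its spread.

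NFs and tumor cells grown alone carried different integrin transcripts. NFs held Itga11, and tumor cells held the laminin and hemidesmosome subunits Itga6 and Itgb4 together with Itga2 and Itgb6. Of the 10 members, 2 were higher and 5 lower in NFs (edgeR quasi-likelihood test over all libraries, Benjamini-Hochberg adjusted p under 0.05), where 55.5% of 17048 genes tested passed, 28.4% higher and 27.1% lower. The median log2 difference was -0.57 over the members and 0.02 over all genes tested.

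Itga11, the alpha subunit of a receptor for fibrillar collagen (ENSMUSG00000032243, chr9:62677826-62783982), was at 438 and 318 CPM in the CD26- and CD26+ subsets from gel 1 and at 0 counts in both tumor libraries from gels 2 and 3. Against a floor of 3 counts per library, its mean level in NFs was at least 2136-fold higher (adjusted p = 2.07e-06). Itga2, the other collagen-binding alpha subunit here, went the opposite way, at 2.79 and 12.6 CPM in gel 1 against 285 and 337 CPM in gels 2 and 3 (log2 difference -5.58, SE 0.356, adjusted p = 4.86e-06). Of the summed Itga2 and Itga11 level per kilobase, Itga11 made up 99.5% and 97.2% in the NF libraries and 0% in tumor cells. The NF and tumor values did not overlap for either gene.

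Itga6 (ENSMUSG00000027111, chr2:71745616-71858416) reached 2.48 and 2.04 CPM in the NF libraries of gel 1 against 689 and 684 CPM in the tumor libraries of gels 2 and 3, a log2 difference of -8.12 (SE 0.334, adjusted p = 6.05e-07). The isolation sort for cells without its product acted on NFs, and its part in this difference was not tested. Itgb4 (chr11:115974709-116008412), its hemidesmosomal partner, was at 1.24 and 1.19 CPM against 568 and 721 CPM (-8.90, SE 0.385, adjusted p = 7.26e-07), and 7.66% of its exon length overlaps an antisense gene. Itgb6 was without counts in NFs alone, against 12.7 and 10.6 CPM in tumor cells, so it was at least 58.7-fold lower in NFs (adjusted p = 1.68e-05). Both cell types held the other members. Itgav was lower in NFs (269 and 174 CPM against 481 and 543, log2 difference -1.11, SE 0.189, adjusted p = 0.00135) and Itgb5 higher (324 and 354 CPM against 166 and 187, 1.07, SE 0.180, adjusted p = 0.00126). For Itgav too, 5.90% of the exon length overlaps an antisense gene. Itga5, Itgb1 and Itgb3 did not pass, with log2 differences of 0.42 (SE 0.283), -0.03 (SE 0.157) and 0.04 (SE 0.275).

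In co-culture the cell types still differed in Itga2, Itga6, Itga11, Itgb4, Itgb5 and Itgb6, with the signs they had in culture alone, and Itga5, Itgb1 and Itgb3 were higher in NFs. Among the 10 members 5 were higher and 4 lower in co-cultured NFs, against 51.8% of 17048 genes, 27.7% higher and 24.2% lower, and the member medians were 0.10 against 0.06 for all genes. Itga11 was at 204 to 445 CPM in the 4 NF libraries and at 3 counts and 1 count in the 2 tumor libraries, a ratio of 2771 with an exact Poisson 95% interval of 1082 to 10171 for the tumor counts, which covers counting error only and not the spread between gels. Itga5 was 1.44 higher on the log2 scale in NFs (SE 0.262, adjusted p = 0.00207), Itgb1 0.46 (SE 0.138, adjusted p = 0.0223) and Itgb3 1.78 (SE 0.246, adjusted p = 0.000446). The differences of Itga6 (-2.54, SE 0.198), Itgb4 (-4.70, SE 0.229), Itga2 (-2.12, SE 0.238) and Itgb6 (-2.83, SE 0.318) all passed. Itgav did not pass (-0.26, SE 0.160, adjusted p = 0.204). Without gel 4, and likewise without gel 5, which leaves 1 co-culture gel, 5 members passed, and Itga5 (1.78 and 1.08), Itgb1 (0.49 and 0.45), Itgb3 (1.87 and 1.72) and Itgb5 (0.74 and 0.51) did not, with their signs kept.

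Itgb3, the beta 3 subunit (ENSMUSG00000020689, chr11:104608000-104670476), rose in co-cultured NFs. Its level was 13.5 and 13.2 CPM in the CD26- and CD26+ subsets from gel 1. In co-culture it was 521 and 420 CPM in CD26- and CD26+ NFs of gel 4 and 446 and 332 CPM in those of gel 5. Each co-culture value lay 25.1-fold to 38.7-fold above that of its own subset in gel 1, and the groups did not overlap. In a fit of the 6 NF libraries with subset and culture as terms, the log2 difference of co-culture from NFs alone was 5.04 for Itgb3 (SE 0.201, adjusted p = 2.00e-07). Among members with counts in both cultures this was the highest estimate, but in CD26+ NFs of gel 5 Itga6 rose more, by 32.4-fold against 25.1-fold. Among the 10 members 8 rose and 0 fell, where 48.8% of 15013 genes passed, 25.9% higher and 22.9% lower, and the medians were 2.22 over the members and 0.02 over all genes. NFs alone came from 1 gel, so the culture and that gel cannot be told apart. With the counts of both subsets summed in each gel, which leaves 3 samples, the number was also 8.

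**Figure D2:**
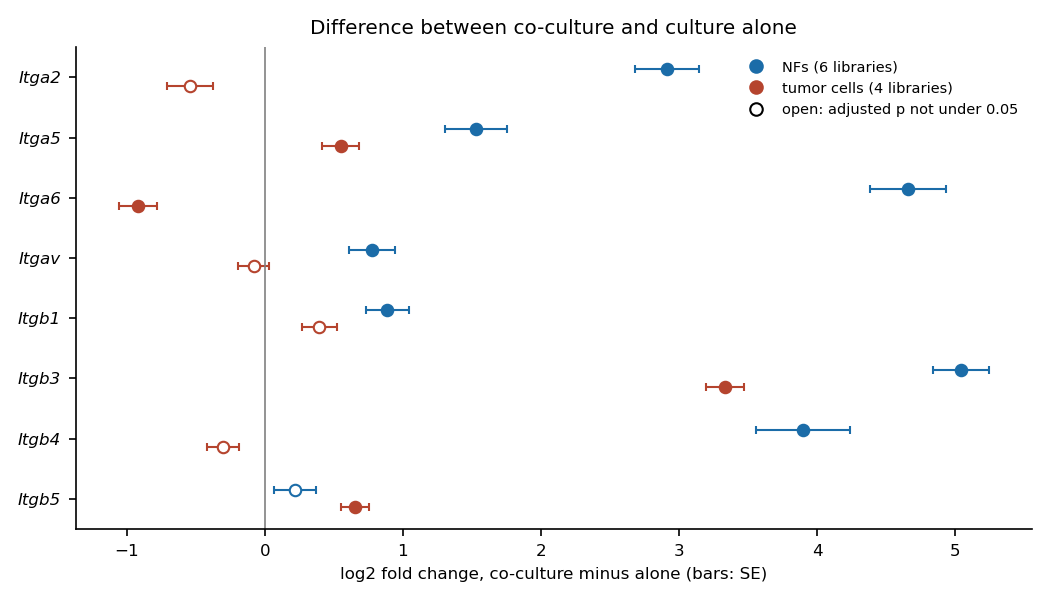
Log2 fold change between co-culture and culture alone (x axis, bars are SE) for 8 subunits in NFs and in tumor cells, with filled points for adjusted p under 0.05. Itgb3 was higher in both cell types, 5.04 in NFs and 3.33 in tumor cells, while Itga6 was higher in NFs and lower in tumor cells; Itga11 and Itgb6, with 0 counts in some groups, are left out.

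Itga5, Itgb1 and Itgav rose by smaller amounts. Itga5 (chr15:103344286-103366763) was at 424 and 384 CPM in CD26- and CD26+ NFs alone, at 1260 and 756 CPM in gel 4 and at 1608 and 1036 CPM in gel 5, a log2 rise of 1.53 (SE 0.224, adjusted p = 0.000448). All 4 co-culture values lay above both values from gel 1. Itgb1 went from 802 and 761 CPM to 1509 and 1245 CPM in gel 4 and 1612 and 1267 CPM in gel 5 (0.89, SE 0.155, adjusted p = 0.00126). Itgav went from 269 and 174 CPM to 409 and 353 CPM in gel 4 and 449 and 248 CPM in gel 5 (0.78, SE 0.166, adjusted p = 0.00390). The groups overlapped for Itgav, where CD26+ NFs of gel 5 lay below CD26- NFs of gel 1. Itga11 (-0.22, SE 0.211, adjusted p = 0.414) and Itgb5 (0.22, SE 0.152, adjusted p = 0.265) did not pass. Without gel 5, Itga11 passed as lower in co-culture (-0.57, adjusted p = 0.0392), and without gel 4 its sign turned (0.06).

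The transcripts of Itgb3, Itgb5 and Itgb6, which pair with Itgav, were thus in other proportions after co-culture. Itgb1 and other beta subunits were left out of these proportions. Of the summed Itgb3, Itgb5 and Itgb6 level per kilobase, Itgb3 made up 2.45% and 2.19% in NFs alone. In co-cultured NFs it made up 46.4% and 42.5% in CD26- and CD26+ NFs of gel 4 and 41.8% and 31.0% in those of gel 5. In tumor cells it made up 5.81% and 3.16% in culture alone and 25.3% and 20.4% in co-culture. In both cell types every co-culture share lay above every share from culture alone, and of these genes Itgb5 held the largest share in all 10 libraries. These are shares of transcripts and say nothing of how much of each receptor was assembled.

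**Figure D3:**
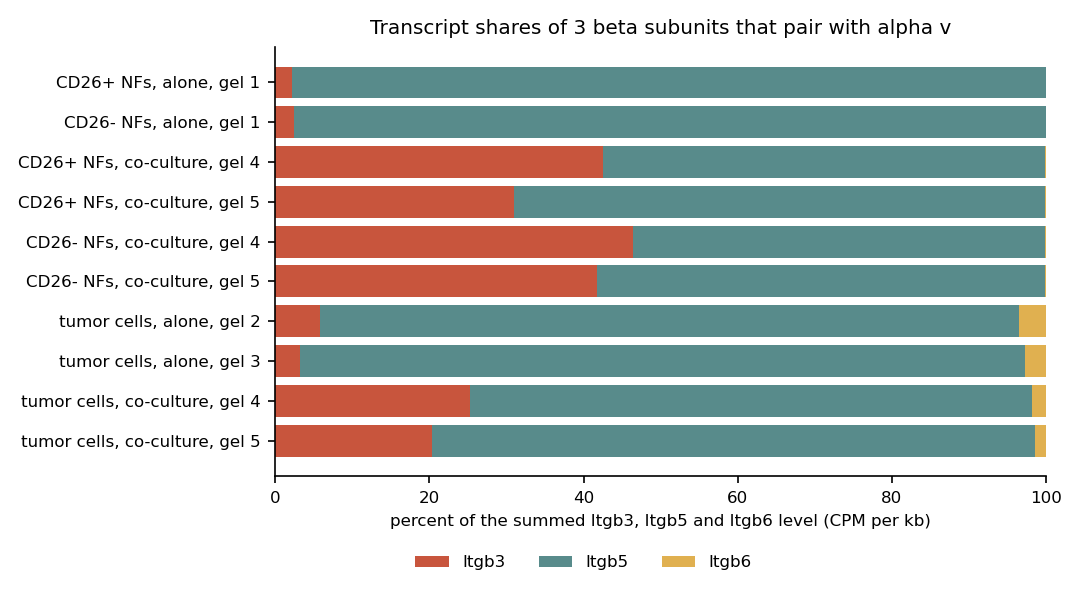
Shares of Itgb3, Itgb5 and Itgb6 in their summed level (percent of CPM per kb, x axis) in each library. The Itgb3 share was 2.19% to 5.81% in cells grown alone, 20.4% and 25.3% in co-cultured tumor cells and 31.0% to 46.4% in co-cultured NFs.

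Members that marked tumor cells also rose in co-cultured NFs, where epithelial transcripts had risen too. Itga6 went from 2.48 and 2.04 CPM to 41.9 and 53.8 CPM in CD26- and CD26+ NFs of gel 4 and to 61.1 and 66.0 CPM in those of gel 5 (log2 difference 4.66, SE 0.274, adjusted p = 1.75e-06). Itgb4 went from 1.24 and 1.19 CPM to 12.2 and 17.2 CPM in gel 4 and 16.1 and 27.2 CPM in gel 5 (3.90, SE 0.339, adjusted p = 1.73e-05). Itga2 went from 2.79 and 12.6 CPM to 24.4 and 75.2 CPM in gel 4 and 32.0 and 72.7 CPM in gel 5 (2.91, SE 0.234, adjusted p = 1.11e-05). Itgb6 went from 0 counts to 1.27 and 2.18 CPM in gel 4 and 1.61 and 0.919 CPM in gel 5, and the mean of these 4 libraries was at least 7.54-fold higher than in NFs alone, taken at a floor of 3 counts per library (adjusted p = 0.00115).

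Each co-cultured NF library was therefore set against the tumor cells sorted from its own gel. Itgb4 in NFs was at 2.52% and 3.55% of the tumor level in CD26- and CD26+ NFs of gel 4 and at 2.77% and 4.70% in gel 5, inside the range of the 10 epithelial markers in each library. The highest of the 10 markers in each of the 4 libraries, Krt19, was at 9.79% and 12.7% in gel 4 and at 9.19% and 17.7% in gel 5, and the other 9 were at 0.827% to 9.90%. Itga6 was at 13.0% and 16.7% in gel 4 and at 14.4% and 15.6% in gel 5, above Krt19 in every library but CD26+ NFs of gel 5. Itga2 was at 15.7% and 48.4% in gel 4 and at 10.6% and 24.1% in gel 5, above Krt19 in all 4 libraries. Itgb6 was above it in CD26+ NFs of gel 4 and in CD26- NFs of gel 5 (14.8%), and below it in the other 2 libraries (9.34% and 8.44%). When the tumor library times the median marker share was taken off each co-cultured NF library, an alternative added after seeing the data, Itgb4 no longer passed (1.02, SE 0.935, adjusted p = 0.395), and the other 7 did. With the highest marker share taken off, Itga6 did not pass either (2.42, SE 1.26, adjusted p = 0.159) and Itgb6 was too low to be tested. Itgb4 became lower (-7.09) by construction, since more was taken off than was counted. Itga2 (1.67, adjusted p = 0.0225), Itga5, Itgav, Itgb1 and Itgb3 (5.19) still passed. The median over the members, 2.22 as deposited, was 1.30 over 10 members with the median share and 0.94 over 9 with the highest share taken off. Tumor RNA in the NF libraries and transcription by NFs cannot be told apart in bulk counts, nor can fewer cells of a type and less RNA per cell.

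**Figure D4:**
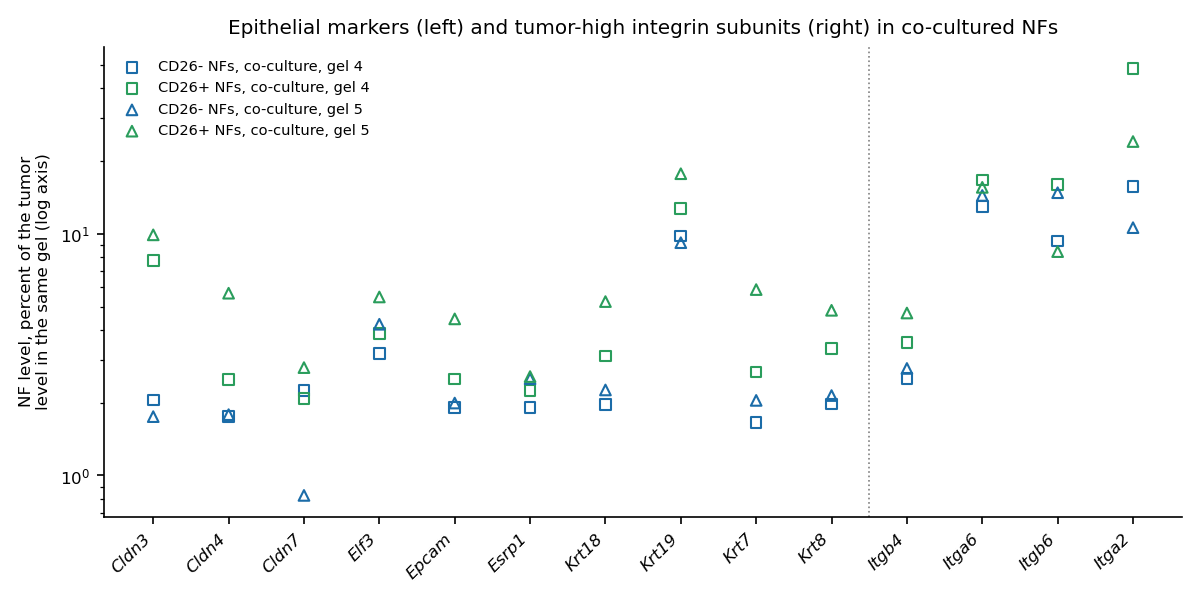
Level in co-cultured NFs as percent of the level in tumor cells from the same gel (y axis, log scale) for 10 epithelial markers and 4 tumor-high integrin subunits, in 4 NF libraries. Itgb4 lay at 2.52% to 4.70%, among the markers, and Itga2 reached 48.4% in CD26+ NFs of gel 4.

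In tumor cells Itgb3 had the largest rise of the 9 members tested. It was at 17.7 CPM in the 13-MCB-17 line alone and 158 CPM in its co-culture, 8.91-fold higher, and at 10.4 and 126 CPM in the 10-SJK-221 line, 12.1-fold higher (log2 difference 3.33, SE 0.137, adjusted p = 1.56e-05, fit of the 4 tumor libraries with line and culture as terms). Its level in co-cultured tumor cells was 33.5% and 32.4% of the mean NF level in the same gel. Of 10 fibroblast markers in those libraries, Fbln2 was at 184% to 212% and Pdgfra at 8.94% to 9.92%, and both were also present in tumor cells alone, at 2096 to 2255 CPM and 35.6 to 67.7 CPM. The other 8 markers were at 0% to 1.66%. All 10 summed to 2135 to 2327 CPM in tumor cells alone and 6338 to 7494 CPM in co-cultured ones, of which Fbln2 made up 6231 and 7316 CPM, and 6 of 7 tested rose. Among 9 members tested, 3 rose and 1 fell, where 22.3% of 13197 genes passed, 10.8% higher and 11.5% lower, and the medians were 0.05 over the members and 0.01 over all genes. Itga11 had too few counts to be tested.

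Itgb5 rose from 166 to 274 CPM in the 13-MCB-17 line and from 187 to 291 CPM in the 10-SJK-221 line (0.65, SE 0.103, adjusted p = 0.00310), and Itga5 from 399 to 513 CPM and from 260 to 449 CPM (0.55, SE 0.135, adjusted p = 0.0213). Itga6 fell from 689 to 322 CPM and from 684 to 424 CPM (-0.92, SE 0.137, adjusted p = 0.00239). For all 3 the direction was the same in both lines. Itga2 (-0.54, SE 0.167, adjusted p = 0.0505), Itgb1 (0.40, SE 0.125, adjusted p = 0.0550) and Itgb4 (-0.30, SE 0.114, adjusted p = 0.0976) missed the threshold, and Itga2 went from 285 to 156 CPM in 13-MCB-17 and from 337 to 302 CPM in 10-SJK-221, lower in both lines. Whether the lines responded differently was not tested. Without the line term 0 members and 0 genes passed (2207 genes at an unadjusted p under 0.05), while the differences were 3.30 for Itgb3, 0.65 for Itgb5, 0.51 for Itga5 and -0.91 for Itga6. Leaving out 1 tumor library needs a fit with the NFs, and in that form 3 members passed with all libraries kept (Itgb3, Itgb5 and Itga6). There, 1 member passed without the tumor library of gel 2 or of gel 4 (Itgb3), and 2 passed without that of gel 3 or of gel 5 (Itgb3 and Itga6).

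Between the lines, 2 of 9 members were lower in 10-SJK-221, Itgb3 (-0.58, SE 0.130, adjusted p = 0.0218) and Itga5 (-0.48, SE 0.135, adjusted p = 0.0486), against 14.5% of 13197 genes, 5.93% higher and 8.54% lower. The median was 0.05 over the members and 0.00 over all genes. In the fit together with the NFs, 0 members passed, with all libraries kept and with any 1 tumor library left out.

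The difference between the responses of NFs and tumor cells was tested in all 10 libraries. The response was larger in NFs for 6 of 10 members and smaller for 0, where 20.2% of 17048 genes passed, 12% with a higher and 8.15% with a lower response in NFs, and the medians were 1.38 and 0.06. Itgb3, which was higher in both cell types, differed by 1.74 (SE 0.362, adjusted p = 0.0124). Itga6, higher in NFs and lower in tumor cells, differed by 5.58 (SE 0.366, adjusted p = 0.000111), Itgb4 by 4.20 (SE 0.412, adjusted p = 0.000462), Itga2 by 3.46 (SE 0.413, adjusted p = 0.00110) and Itgav by 0.85 (SE 0.249, adjusted p = 0.0450). Itgb6 passed too (adjusted p = 0.00285), with a fitted value that depends on its 0 counts in NFs alone. Itga5 (1.02, SE 0.377, adjusted p = 0.0922), Itgb1 (0.49, SE 0.208, adjusted p = 0.135), Itgb5 (-0.44, SE 0.235, adjusted p = 0.222) and Itga11 (adjusted p = 0.162) did not pass. With the highest epithelial marker share taken off the NFs, Itgb3 kept its call (1.87). Itgb4 turned lower (-6.97) by construction, since more was taken off than was counted. The other 4 no longer passed, with Itgav at 0.75, close to its reported difference, Itga2 at 2.10, Itga6 at 3.30 and Itgb6 at a fitted 5.33. Without gel 4 or without gel 5, which leaves 1 co-culture gel, 0 genes passed.

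Between the subsets, Itga2 stood apart. It was higher in CD26+ NFs in every gel, at 12.6 CPM against 2.79 in gel 1, 75.2 against 24.4 in gel 4 and 72.7 against 32.0 in gel 5, so 4.50-fold, 3.09-fold and 2.27-fold (log2 difference 1.42, SE 0.192, adjusted p = 0.00544). Itgav was lower in CD26+ NFs in every gel, 174 against 269 CPM, 353 against 409 and 248 against 449 (-0.71, SE 0.152, adjusted p = 0.0269). Among the 10 members 1 was higher and 1 lower, where 7.53% of 15013 genes passed, 3.93% higher and 3.6% lower, and the medians were -0.23 over the members and 0.00 over all genes. Itga11 (-0.69, SE 0.202, adjusted p = 0.0692) and Itga5 (-0.66, SE 0.197, adjusted p = 0.0734) were lower in CD26+ NFs of all 3 gels and missed the threshold.

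**Figure D5:**
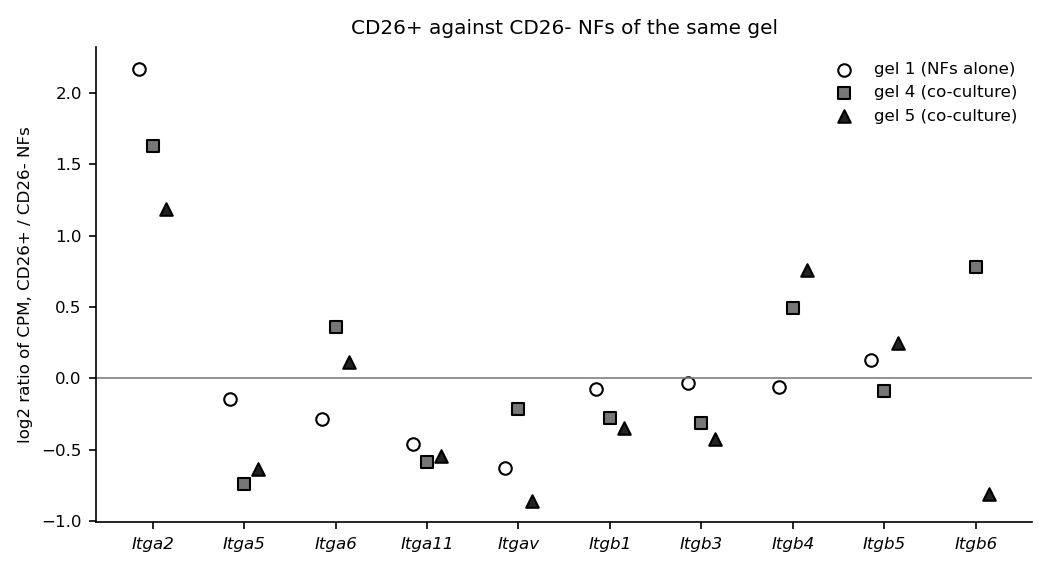
Log2 ratio of CPM in CD26+ to CD26- NFs of the same gel (y axis) for each subunit, with 1 symbol per gel. Itga2 lies above 0 in all 3 gels, at 2.27-fold to 4.50-fold, and Itga5, Itga11, Itgav, Itgb1 and Itgb3 lie below 0 in all 3.

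The subsets in a gel shared that gel, and with the gel as a block, Itga11 (adjusted p = 0.0134) and Itga5 (adjusted p = 0.0350) passed beside Itga2 and Itgav, 4 members in all. Without gel 5, 0 members passed, with Itga2 at 1.71 (adjusted p = 0.0583) and Itgav at -0.55 (adjusted p = 0.320). The share of the tumor level was higher in CD26+ than in CD26- NFs for 9 of 10 epithelial markers in gel 4 and 10 of 10 in gel 5. Their medians were 2.90% against 1.97% in gel 4 and 5.36% against 2.09% in gel 5, and the part of tumor RNA in the Itga2 difference was not tested. In gel 1, where Epcam was at 0 in both subsets, Itga2 had 179 counts in CD26+ and 45 in CD26- NFs. With the median and the highest marker share taken off, alternatives chosen after seeing the data, the Itga2 difference was 1.49 (adjusted p = 0.00500) and 2.28 (adjusted p = 0.0479). In CD26- NFs of gel 5, Itga2 was at 10.6% of the tumor level and the highest share was 9.19%, so little was left there. Itgav missed the threshold with the highest share, at a difference of -0.83 (adjusted p = 0.0910).

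Whether the subsets responded differently to co-culture was tested as an interaction. None of the 10 members passed with edgeR, with DESeq2 or with the gel block, where 0.376% of 16231 genes passed, 0.228% higher and 0.148% lower, and the medians were -0.10 over the members and 0.03 over all genes. At an unadjusted p under 0.05, 1265 genes were counted with edgeR and 703 with DESeq2. The interaction estimates were -0.36 for Itgb3 (SE 0.331), -0.57 for Itga5 (SE 0.375) and -0.81 for Itga2 (SE 0.385), and with 1 gel of NFs alone these errors leave room for differences of that size.

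Of the 16 other integrin subunits in the table, 15 could be tested for culture in NFs. Among them 8 rose and 1 fell in co-culture, with a median of 1.56, against 25.9% of all genes tested that rose and 22.9% that fell. Itgax, a subunit of a leukocyte integrin, had 0 and 3 counts in gel 1 and reached 3.11 to 4.82 CPM in co-cultured NFs (adjusted p = 0.000218). The sum of the leukocyte markers, mostly Cd68, was higher there too, with 1 of 2 tested markers up, and their part was not tested. Itga7, a laminin-binding alpha subunit, went from 5.03 and 6.04 CPM to between 62.4 and 81.9 CPM (3.69, SE 0.187, adjusted p = 8.38e-07), and it was also the 1 other subunit that rose in tumor cells (1.46, SE 0.166, adjusted p = 0.000720). Itga3, which pairs with Itgb1 as an epithelial laminin receptor, was at 1.99 and 1.82 CPM in gel 1 against 1405 and 1629 CPM in the tumor lines grown alone, and rose to between 30.7 and 60 CPM in co-cultured NFs (4.49, SE 0.253, adjusted p = 1.35e-06), at 2.30% to 4.23% of the same gel's tumor level, among the epithelial marker shares. Itga4 rose by 2.87 (SE 0.307, adjusted p = 6.00e-05) and had 0 counts in all 4 tumor libraries. In tumor cells 1 of 8 tested rose and 2 fell, against 10.8% and 11.5% of all genes. The 2 were subunits of leukocyte integrins. Itgb2 fell by 2.52 (SE 0.159), from 29.4 to 5.26 CPM in 13-MCB-17 and from 34.7 to 6.10 CPM in 10-SJK-221. Itgb7 fell by 4.28 (SE 0.779), but unequally, from 90.3 to 1.24 CPM in 13-MCB-17, 72.6-fold, and from 7.63 to 2.17 CPM in 10-SJK-221, 3.52-fold. Leukocyte markers, mostly Cd68, summed to less in these co-cultured libraries too, as given above. Of 2 markers tested there, 1 fell, and their part was not tested. Between the subsets, 0 of 15 were higher and 2 lower in CD26+ NFs, against 3.93% and 3.6% of all genes, Itga9 (-1.11, SE 0.166, adjusted p = 0.00701) and the collagen receptor Itga1 (-1.0, SE 0.222, adjusted p = 0.0299).

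Of 18 adaptor genes, which tie integrin tails to actin, 9 rose and 2 fell in co-cultured NFs, where 48.8% of all genes passed. Parvb, a parvin that binds integrin-linked kinase, rose by 4.57 (SE 0.184, adjusted p = 2.10e-07), and Fermt1, an epithelial kindlin, went from 0 counts to between 2.18 and 5.94 CPM, at 1.79% to 3.52% of the same gel's tumor level, among the epithelial marker shares. In tumor cells 5 rose and 3 fell, where 22.3% of all genes passed, and Fermt1 was among those that rose (2.19, SE 0.103, adjusted p = 1.56e-05). In CD26+ NFs 1 adaptor was higher and 5 were lower than in CD26- NFs, where 7.53% of all genes passed, with Tln2 at -1.06 (SE 0.198) and Vcl at -0.90 (SE 0.144), which encode the linkers talin 2 and vinculin. Of the 4 hemidesmosome genes, Cd151 rose (1.21, SE 0.203, adjusted p = 0.00101) and Plec fell (-0.60, SE 0.127, adjusted p = 0.00381) in co-cultured NFs, and Col17a1 fell by 2.74 (SE 0.278) in tumor cells.

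The genes of 17 matrix ligands moved in both directions. In co-cultured NFs 9 rose and 6 fell, with a median of 0.91, where 48.8% of all genes passed, 25.9% higher and 22.9% lower. Vtn, which encodes the ligand vitronectin, fell from 16.6 and 15.2 CPM to at most 0.115 CPM (-7.78, SE 0.403, adjusted p = 8.96e-07). The laminin chain genes Lama3 (4.90) and Lamb3 (6.38) rose in NFs, from at most 0.702 CPM to at most 31.3 CPM, and were at 678 to 1392 CPM in tumor cells alone. In co-cultured NFs they were at 1.42% to 2.41% and 2.75% to 4.77% of the same gel's tumor level, among the epithelial marker shares. In tumor cells 6 of 16 ligand genes rose and 4 fell, against 10.8% and 11.5% of all genes. Col3a1, Col1a1, Col1a2 and Fbn1 rose there from at most 3.10 CPM to between 1.98 and 89.1 CPM, which was 0.0461% to 0.802% of the mean NF level in the same gel. The first 3 are also fibroblast markers, whose rise in co-cultured tumor cells is given above, and the part of NF RNA was not tested. In CD26+ NFs 0 were higher and 4 lower, against 3.93% and 3.6% of all genes, among them Fn1, the fibronectin gene bound by the Itga5 receptor (-0.76, SE 0.190, adjusted p = 0.0417).

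For the members, the genes with the most similar pattern were found over the 10 libraries among 13489 genes, by the root mean square difference of log2(CPM + 1) centred on each gene's mean. Itgb4 was nearest to the epithelial genes Esrp1 (0.24) and Epcam (0.24). Itga11 was nearest to Colec12 (0.25) and Ppic (0.25), Itgb1 to Fyn (0.12) and Zswim6 (0.14), and Itga5 to Gm5535 (0.26) and Pfkfb3 (0.30). Itgav was nearest to Pank3 (0.12) and Usf3 (0.13), Itgb5 to Nat14 (0.11) and Lmf2 (0.11), and Itgb6 to Afdn (0.19) and Anxa3 (0.22). Ezr was the second nearest to Itga2 (0.40). Itga6 was nearest to Serinc2 (0.47) and Areg (0.56), and Itgb3 to Ret (0.55) and Gipr (0.73), for Itgb3 the largest distances of the 10 members at both ranks.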

How the data were processed

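Per the labels and methods, NFs and tumor cells were sorted by color from gels, and poly(A) RNA was made into stranded libraries. The submitters' processing notes name HISAT2 2.2.1 and GRCm38, while how reads were counted, whether by strand and on which annotation release, was not given in the sources used here. The authors deposited raw read counts per gene. Of 55486 gene IDs, 99.5% were in GENCODE M21, and all 10 members had the same position there.

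Members and gene lists were chosen with earlier results of these data known. A further floxed allele of the tumor lines is not reported here. CPM were counts over the library total. Tests used edgeR 4.0.16 (quasi-likelihood F test, TMM, filterByExpr, Benjamini-Hochberg, threshold 0.05) in R 4.3.3, with terms for culture and subset (NFs), culture and line (tumor cells) or 6 groups (cell types). They were checked on simulated counts that were independent between libraries, so that check did not cover libraries sharing a gel. SE was the absolute log2 fold change over the square root of F. DESeq2 1.42.0, other filters and scalings, the gel as a block and each gel left out were alternatives. Gel numbers pair libraries because those libraries shared a gel. Deviations of CD26- and CD26+ NFs correlated at 0.12, those of CD26- NFs and tumor cells at 0.12 and those of CD26+ NFs and tumor cells at 0.07. Libraries are 1 per gel and cell type. In the fits, both NF subsets of a gel counted as separate libraries, and NFs alone came from 1 gel. P-values for comparisons with NFs alone therefore measure no spread between gels of that culture. The co-culture gels also differ in tumor line, which is part of the spread where no line term was fitted. Named genes were the 10 members, the largest changes in each other list (at most 4, mean of at least 1 CPM), 2 nearest patterns for each member, and Dpp4, Cdh1 and Epcam, with markers named as measured.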

Additional observations from a re-analysis of the deposited data

Results flagged for a closer look

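The response to co-culture differed between NFs and tumor cells for 6 members, by a test of that difference over all 10 libraries with edgeR. The log2 difference was 3.46 for Itga2, 5.58 for Itga6, 0.85 for Itgav, 1.74 for Itgb3, 4.20 for Itgb4 and 7.66 for Itgb6, and the last is a fitted value against NF libraries with 0 counts. Epithelial markers also rose in co-cultured NFs, to a median of 1.97% to 5.36% of the tumor level in the same gel, and Itgb4 lay inside the markers' range. With the highest marker share taken off, Itgb4 passed with the opposite sign (-6.97), by construction since more was taken off than was counted. Itgb3 passed in the same direction (1.87), and the other 4 missed the threshold. Of those, Itgav was at 0.75, Itga2 at 2.10, Itga6 at 3.30 and Itgb6 at a fitted 5.33. Over all 12 alternatives Itgav stayed between 0.71 and 0.97 and passed in 4.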

How the results depend on the processing

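Against the fits reported, other scalings, filters and DESeq2 gave within 1.5 times the same number of members except where named. Alternatives that subtract tumor RNA were chosen after seeing the data. At the study's threshold (adjusted p and an absolute log2 fold change above 2), members and genes called were 5 and 4899 for cell type in culture alone, 5 and 3999 for cell type in co-culture, 0 and 192 for subset, 5 and 2047 for culture in NFs, 1 and 418 for culture in tumor cells, 0 and 278 for line, and 4 and 1629 for the response difference. With DESeq2, subset had 5 members, the interaction 97 genes, culture in tumor cells 1574 genes, and line 1 member and 945 genes. The gel as a replicate block, which pairs libraries of 1 gel, gave 4 members for subset and 395 genes for the interaction and changed no other call on members; the culture of NFs is nested in gels and could not be blocked. With RLE size factors and with a filter of 1 CPM in 2 libraries, line had 1 member, and the interaction had 38 genes with that filter and 18 with none. Without a filter, line had 2917 genes. Without the line term, culture in tumor cells had 0 members and 0 genes. In all 10 libraries with that term, it had 1817 genes and line had 0 members and 1065 genes, and the response difference had 5247 genes. With the median epithelial marker share subtracted, the interaction had 30 genes. With the highest, it had 2, subset had 1 member and 219 genes, and the response difference had 2 members. Leaving out 1 gel at a time gave 5 to 5 members and 2614 to 3018 genes for cell type in co-culture, 0 to 3 and 17 to 1299 for subset, 8 to 9 members for culture in NFs, 0 to 0 genes for the interaction, and 0 to 6 and 0 to 3358 for the response difference. Leaving out 1 tumor library gave 1 to 2 and 406 to 1014 for culture in tumor cells and 0 to 0 and 401 to 526 for line, in the form with all libraries, which with none left out gave 3 and 1817, and 0 and 1065. The interaction was refitted with the tumor libraries too. Where this left 1 library in a group, that library was assumed to vary like the others. Signs turned mostly for members that were not called. In culture alone, Itgb1 between cell types became 0.0088, 0.011, 0.015 and 0.0088 (RLE, no filter, 1 CPM filter, DESeq2) and -0.057 to 0.0020 leaving out 1 gel, and Itgb3 became -0.20 with the line term and ran from -0.32 to 0.52. With the median marker share subtracted, Itgb4 was -0.91 between subsets and -1.0 in the interaction. With the highest, Itgb4 was -0.16 between subsets, -7.09 for culture in NFs and -6.97 in the response difference, by construction since more was taken off than was counted; Itga11 was 0.0090 for culture in NFs, and Itga2, Itga6 and Itgav were 0.31, -1.13 and -0.14 in the interaction. Itgb1 between lines was 0.015 in all 10 libraries. Leaving out 1 gel, the other ranges that crossed 0 were -0.16 to 0.046 for Itga6, -0.11 to 0.046 for Itgb5 and -0.96 to 0.61 for Itgb6 between subsets, -0.57 to 0.063 for Itga11 in NFs with culture, -0.28 to 0.40 for Itgav, -0.23 to 0.072 for Itgb5 and -0.98 to 0.62 for Itgb6 in the interaction, and -0.086 to 0.36 for Itga6 and -0.059 to 0.089 for Itgb1 between lines. The causes were not tested. With 3 counts or fewer in a library, Itga11 in tumor cells and Itgb6 in NFs alone were limited by depth.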
